A study of Mus musculus with 12 samples.

Results

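Solute carriers are membrane proteins that move sugars, amino acids, carboxylates, nucleosides, metals and ions across the plasma membrane and the membranes of organelles. The genes described here are those whose symbol starts with Slc followed by a digit and whose value was 10 or more in at least 3 of the 12 libraries of a study of mouse fetal liver progenitors. Members were thus chosen by their measured values in these libraries. Of the 369 rows with such a symbol in a table of 23420 genes, 51 met the rule and 131 were listed at 0 in every library. By substrate class, 14 of the 51 belong to the mitochondrial carrier family, 11 to amino acid or peptide carriers, and 6 each to nucleotide sugar and metal or heme carriers. Classes follow the gene family, with some genes placed singly, so a class name need not give a member's own substrate or membrane. Another 4 carry nucleosides, vitamins or choline, 3 carry inorganic ions, 2 carry sugars, 2 carry monocarboxylates and 1 carries organic cations. The remaining 2, Slc9a3r1 and Slc7a6os, are named after a carrier and are not transporters.

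Lineage-negative, c-Kit-positive fetal liver cells, labelled Il7ra-positive in the markers field, were sorted by flow cytometry for the presence or absence of PIR, the paired immunoglobulin-like receptor. Each tube held 100 cells, and RNA was read through an oligo-dT primer carrying a molecular barcode, so that a value counts tagged molecules after the authors' normalization. The 4 groups of 3 libraries are PIR+ and PIR- cells, each from wild-type and from KO mice. The labels give no strain and no name for the deleted gene, so the deletion could not be checked, and no source says whether a group's libraries came from separate animals. The p-values therefore measure the spread between these samples, which may be technical. Groups follow the sample titles. The markers field contradicts the PIR sign of the title in 6 of the 12 libraries, and the source name gives an embryonic day (E), E12.5 with PIR+ markers and E14.5 with PIR- markers, while the series title gives E12.5 alone and calls the PIR- cells IL7R-.

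Summed values ran from 155374 to 284648 per library, and 9881 to 11200 genes were above 0. The 51 carrier genes summed to 974.1 to 1841.8, between 0.627% and 0.682% of each library. The genes of the sort (Kit, Il7r, Lilrb3, Pira1 and Pira2) and Ptprc together summed to 123.2 to 193.7 in PIR+ and 41.9 to 75.6 in PIR- libraries. The PIR genes Lilrb3, Pira1 and Pira2 were 6.2 to 14.3, 4.7 to 16.0 and 9.3 to 35.7 in libraries titled PIR+. They were at 0 in every library titled PIR-, and so followed the titles where the markers field differs. Il7r was 9.7 to 20.3 in PIR+ and 16.1 to 24.4 in PIR- libraries. B-lineage markers summed to 43.1 to 81.3 in PIR+ and 824.6 to 1278.4 in PIR- libraries, and stem and multipotent progenitor markers to 276.7 to 428.9 and 19.2 to 72.0, and all genes of both lists were detected. In such bulk samples fewer cells of a type cannot be told apart from less RNA per cell. Hba-a1, an alpha globin gene, was 359.6 to 604.1 in 5 libraries (wild-type PIR+ replicate 3, wild-type PIR- replicates 2 and 3, KO PIR+ replicate 1 and KO PIR- replicate 1) and 8.2 to 62.6 in the other 7. Endothelial markers summed to 127.4 to 183.3 in KO PIR+, 66.0 to 82.7 in wild-type PIR+ and 22.5 to 66.1 in PIR- libraries. In PIR+ libraries most of that sum was Egfl7 alone (119.0 to 168.1 in KO, 56.5 to 73.9 in wild type). Pecam1, Cdh5, Kdr, Stab2, Lyve1 and Tie1 were each highest in wild-type PIR- replicate 3 (12.4, 7.0, 0.8, 5.4, 10.1 and 2.3). Tek and Esam were highest in KO PIR+ replicate 3 (1.5 and 2.3). Hepatoblast markers summed to 7.6 to 26.6 in PIR+ and 13.8 to 67.8 in PIR- libraries, macrophage markers to 3.4 to 8.4 and 0.3 to 9.7, and megakaryocyte and mast cell markers to 5.5 to 23.6 and 0 to 6.3, with Ms4a2, Mcpt8, Prss34 and Fcer1a at 0 throughout. The part of these markers in the results was not tested.

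As background, dividing progenitors import glucose and glutamine, export lactate with a proton, and exchange metabolites between mitochondria and cytosol through carriers of the inner mitochondrial membrane. Carriers of the Golgi apparatus bring in nucleotide sugars, from which glycosylation enzymes build the glycans of surface receptors. Many carriers need a partner: basigin (Bsg) brings the lactate carrier Slc16a1 to the cell surface, and Slc3a2 is the heavy chain that holds light chains of the Slc7 family there.

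The carriers called between PIR+ and PIR- cells in the same direction in both genotypes, with or without scaling of the libraries, form a small lower set, Slc16a1 and Slc25a1, and a higher set led by Slc35d3, Slc22a3 and Slc16a10. Those 3 met the rule through PIR+ libraries alone, so their direction was set by the choice of members. Promoters of these 5 genes, picked by their calls, are shown as 300 bases each. They run from 250 before to 50 after the RefSeq gene start (GRCm38.p6), read 5′ to 3′ on the strand of the gene. Capitals mark matches on either strand to any of 6 motifs: CACGTG (the E-box of Myc and related factors), the EBF1-type motif, GAGGAAGT (PU.1 type), TGTGGT (RUNX type), GGGCGG (GC box) and CCAAT. No match in these 5 promoters overlaps another. The promoters of the lower pair are at chr3:104638414-104638713 (plus strand) and chr16:17928170-17928469 (minus strand).
Slc16a1: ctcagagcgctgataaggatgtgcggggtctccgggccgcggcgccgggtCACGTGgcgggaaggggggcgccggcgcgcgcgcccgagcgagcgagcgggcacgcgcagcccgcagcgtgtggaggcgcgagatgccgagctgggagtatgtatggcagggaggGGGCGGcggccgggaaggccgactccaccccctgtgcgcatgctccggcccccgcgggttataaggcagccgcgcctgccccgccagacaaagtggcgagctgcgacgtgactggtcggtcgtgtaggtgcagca
Slc25a1: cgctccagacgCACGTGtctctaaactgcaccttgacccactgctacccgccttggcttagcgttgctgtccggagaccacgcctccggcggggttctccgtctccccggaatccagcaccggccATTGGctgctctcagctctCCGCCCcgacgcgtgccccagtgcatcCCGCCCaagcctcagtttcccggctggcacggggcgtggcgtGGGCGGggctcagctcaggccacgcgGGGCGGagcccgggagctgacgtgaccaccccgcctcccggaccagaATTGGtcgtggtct
The promoters of the higher set are at chr10:19851410-19851709, chr17:12507655-12507954 and chr10:40142205-40142504, all on the minus strand.
Slc35d3: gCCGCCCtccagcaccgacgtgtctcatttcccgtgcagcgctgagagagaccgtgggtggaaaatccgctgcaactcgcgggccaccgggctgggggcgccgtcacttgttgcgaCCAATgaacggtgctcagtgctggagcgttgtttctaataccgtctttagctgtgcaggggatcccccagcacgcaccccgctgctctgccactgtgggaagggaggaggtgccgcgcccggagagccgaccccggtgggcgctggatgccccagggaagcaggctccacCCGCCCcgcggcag
Slc22a3: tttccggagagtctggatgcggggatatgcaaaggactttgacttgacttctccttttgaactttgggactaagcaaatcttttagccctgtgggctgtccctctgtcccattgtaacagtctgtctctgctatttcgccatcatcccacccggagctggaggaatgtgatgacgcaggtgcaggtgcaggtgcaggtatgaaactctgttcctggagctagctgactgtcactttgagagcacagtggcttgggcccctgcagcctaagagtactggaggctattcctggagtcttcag
Slc16a10: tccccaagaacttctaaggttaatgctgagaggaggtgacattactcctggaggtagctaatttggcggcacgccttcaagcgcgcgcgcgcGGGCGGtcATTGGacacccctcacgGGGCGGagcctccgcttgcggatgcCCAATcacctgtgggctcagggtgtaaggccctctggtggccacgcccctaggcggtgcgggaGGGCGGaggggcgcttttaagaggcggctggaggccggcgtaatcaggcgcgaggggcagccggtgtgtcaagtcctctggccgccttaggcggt
Both promoters of the lower pair hold CACGTG, and none of the 3 higher ones does. As these promoters were picked by their calls, a link between motif and direction was not tested. The Slc22a3 window holds none of the 6 motifs.

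RefSeq entries were found for 36 of the 51 genes. CACGTG was in 6 of the 36 promoters (16.7%, against 7.2% of 27025 promoters of the same length), those of Slc16a1, Slc25a1, Slc7a14, which was higher in wild-type PIR+ cells, and Slc20a1, Slc25a13 and Slc30a5, which were called between the subsets in neither genotype. GGGCGG was in 30 (83.3%, against 35.9%) and CCAAT in 18 (50%, against 37.9%). TGTGGT was in 3 (8.3%, against 16.9%), GAGGAAGT in 2 (5.6%, against 3.3%) and the EBF1-type motif in 1 (2.8%, against 0.9%). These are matches of letters and describe no binding. Members had to reach the threshold, while the 27025 promoters were taken whatever the value of their gene. The sets compared thus differ in expression as well, and the part of this in the shares was not tested.

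Mitochondrial carriers held the largest share of the carrier sum in every library. Slc25a5, an ADP/ATP translocase of the inner mitochondrial membrane, led with a mean of 246 ± 19.5 (SD, n = 3, as for all such means) in wild-type PIR+, 199 ± 23.3 in wild-type PIR-, 276 ± 45.9 in KO PIR+ and 223 ± 29.6 in KO PIR- libraries. Slc25a3, the mitochondrial phosphate carrier, followed among them, and the 14 mitochondrial carriers together made up 42.14% to 48.33% of the carrier sum in each library. Slc7a14, a relative of the cationic amino acid carriers, and Slc23a1, a vitamin C carrier, were the other members, beside these and Slc38a2, among the 5 highest of the 51. Values were not divided by transcript length, because each molecule was primed at its poly(A) tail, and orders between genes are orders of molecule values.

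The values of 3 genes did not have the form of molecule counts. In each library 93.0% to 94.2% of the low values lay, within 0.055, on multiples of 1 step, the value of a single molecule (0.49 to 0.775 by library). For 48 of the 51 members at least 10 of 12 values were on the step, whereas for Slc7a14 none was, for Slc7a2 1 and for Slc23a1 3. Of the 4420 genes that passed the same filter and stayed under 400 in all libraries, 3.48% had 3 or fewer values on the step, against 5.88% of the members. Slc7a14 shares 261 of its 9787 exonic 40-base words with 708 other genes, Slc7a2 shares 658 of 9119 with 1779 and Slc23a1 shares 121 of 3265 with 683. Whether the values of these 3 genes come from their own transcripts was not tested. Slc25a5 shares 42.3% of its words with 10 other genes, so its counts are uncertain too.

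**Figure D1:**
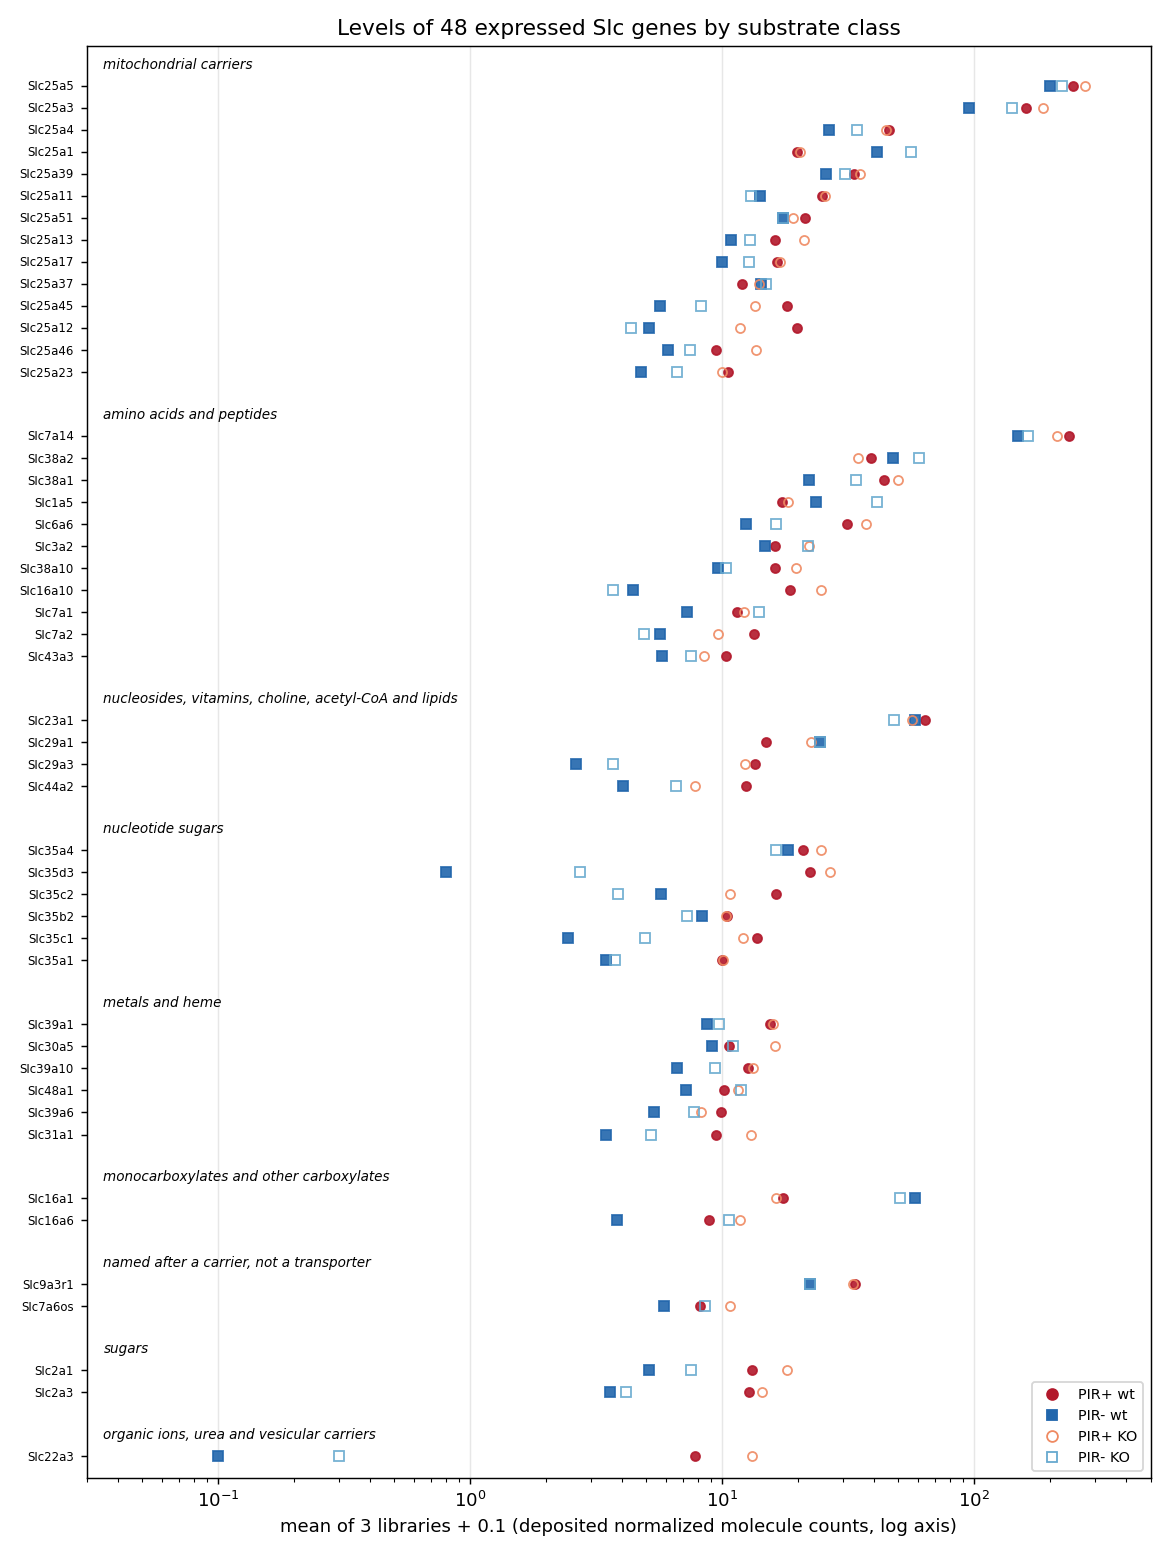
Group means of 48 of the 51 genes, those outside the class of inorganic ion carriers (deposited value plus 0.1, log axis, 4 markers for the 4 groups, mean of 3 libraries), arranged by substrate class. Slc25a5, Slc7a14 and Slc25a3 stand above 90 in every group, and Slc22a3 and Slc35d3 show the widest gaps between PIR+ and PIR- markers.

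Just inside the threshold stood 6 genes that reached 10 in exactly 3 libraries: Slc35a1, Slc35b2, Slc39a6, Slc43a3, Slc44a2 and Slc7a6os. Just outside stood 7 that reached it in 2: Slc19a1, Slc35b4, Slc38a6, Slc39a9, Slc4a1, Slc50a1 and Slc7a6. Slc4a1, the red cell anion exchanger, was 0, 0 and 2.0 in wild-type PIR+, 0, 10.8 and 8.5 in wild-type PIR-, 4.8, 0 and 0 in KO PIR+ and 13.8, 0 and 0.7 in KO PIR- libraries. It was above 4 in 4 of the 5 globin-rich libraries and in no other. The threshold also favours genes high in PIR+ cells. Of the 51, 21 (41.2%, against 24.8% of all genes tested) reached it within the PIR+ libraries alone and 0 within the PIR- libraries alone (3.0% of all), while 27 (52.9%, against 68.5%) reached it in both and 3 (5.9%, against 3.7%) only when the libraries were pooled. A gene of the first kind could pass only by being higher in PIR+ cells.

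In wild type, limma called 30 of the 51 members between PIR+ and PIR- cells at an adjusted p under 0.05, against 44.4% of all genes tested. Of these 27 were higher in PIR+ (40.6% of all genes were) and 3 lower (3.72%). In KO cells 19 were called, against 25.5% of all genes, 15 higher (22.5%) and 4 lower (2.97%). The median gene was itself higher in PIR+ cells, by 0.51 on the log2 scale in wild type and 0.39 in KO, and the median member by 0.73 and 0.45. The members that passed the threshold through PIR+ libraries alone account for 17 of the 27 higher calls in wild type and 13 of the 15 in KO, and as their direction was set by the threshold these counts support nothing. Of the 27 members that reached it in both subsets, 9 were higher and 3 lower in wild type, and 2 higher and 4 lower in KO.

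Because the deposited scale keeps differences in library sum, all fits were also run on values scaled by median-of-ratios factors, which bring the median of all genes to 0.02 in wild type and 0.01 in KO. Relative to it 12 members were higher and 7 lower in wild type, and 7 higher and 4 lower in KO. Of all 4542 genes tested, 1025 were called after scaling in wild type and 710 in KO, both directions together. Of the members called with the same sign on both scales, 12 were higher in wild type (11.5% of all genes were) and 3 lower (3.7%), and in KO 7 were higher (8.12%) and 4 lower (2.97%). In both genotypes and on both scales 7 were higher (6.01% of all genes), namely Slc35d3, Slc22a3, Slc29a3, Slc16a10, Slc25a12, Slc2a3 and Slc6a6, and 2 lower (2.42%), Slc16a1 and Slc25a1. Members that passed the threshold through PIR+ libraries alone account for 11 of the 12 higher calls after scaling in wild type and 6 of the 7 in KO, and of the 7 named only Slc6a6 reached it in both subsets. These counts of higher members, and those that follow, therefore support nothing either. The 3 and 3 libraries did not overlap for 36 members in wild type (52.0% of all genes), 30 of them higher and 6 lower in PIR+, and for 23 in KO (39.1%), 19 higher and 4 lower. Averaged over genotypes 35 members were called (59.6% of all genes), 31 higher (55.0%) and 4 lower (4.58%). Within an embryonic day of the source name, the counts for wild type were 19 with the E12.5 and 21 with the E14.5 libraries, and for KO 18 and 11. Wild type at E14.5 and KO at E12.5 have 1 PIR+ and 1 PIR- library each, so those fits compare single libraries, whose spread is assumed to be that of the other groups. The share of all genes called is not given for the counts by day or without the globin-rich libraries. Leaving out the 5 globin-rich libraries (1 wild-type PIR- library then remains) gave 16 for wild type and 14 for KO.

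**Figure D2:**
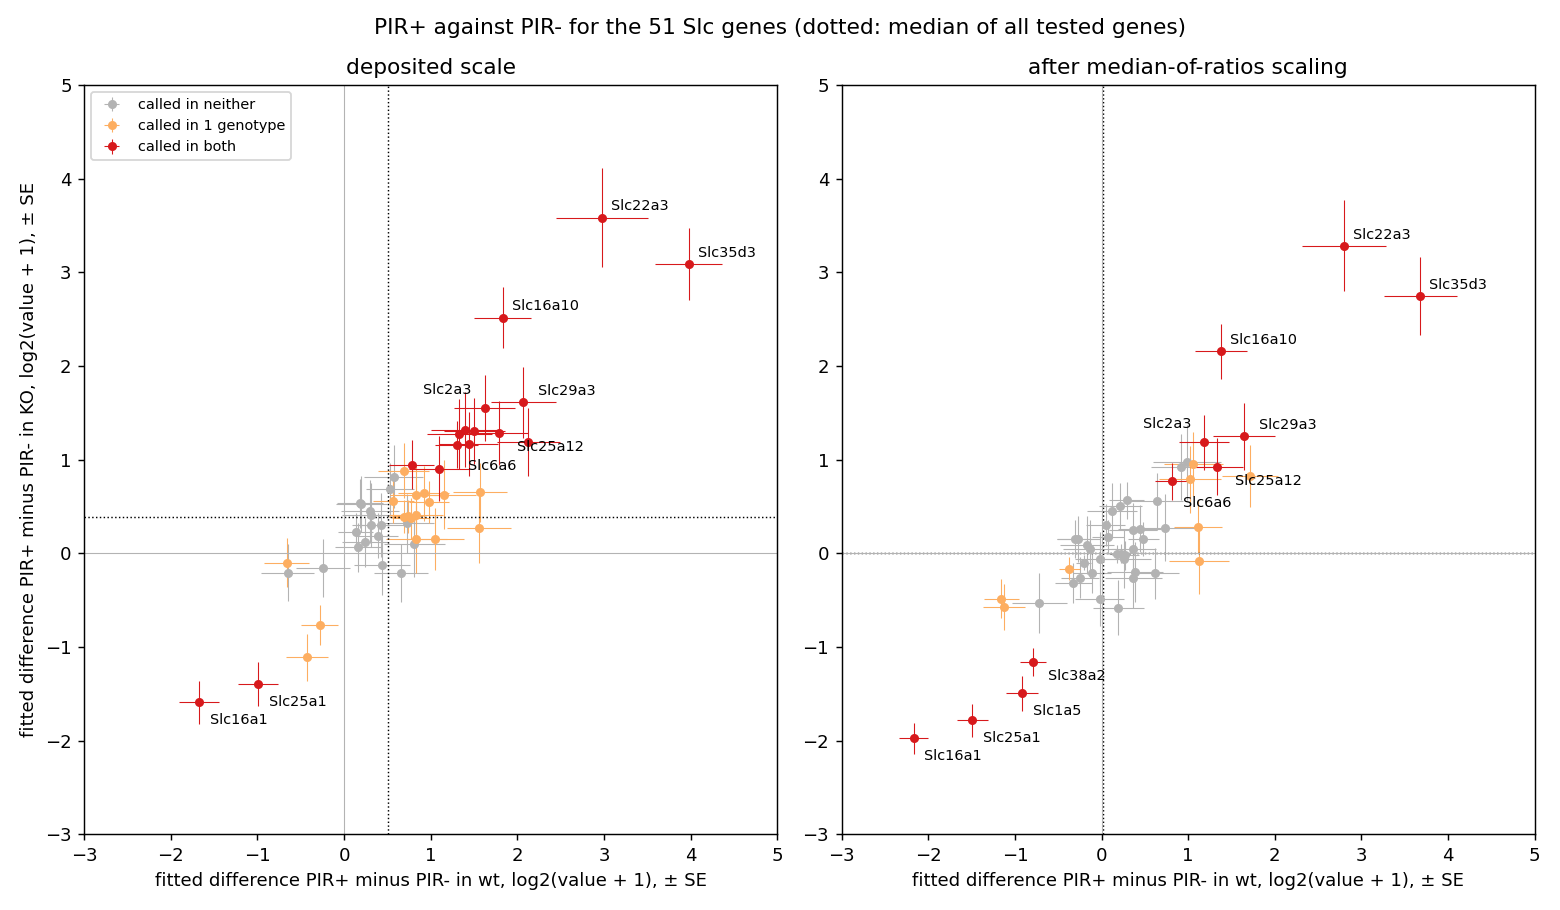
Fitted PIR+ minus PIR- difference of each member on the log2(value + 1) scale, wild type on the horizontal and KO on the vertical axis, with standard errors, on the deposited scale (left) and after median-of-ratios scaling (right). Grey points were called in neither genotype, orange in 1 and red in both, and the dotted lines are the median of all genes tested. Slc16a1 and Slc25a1 lie low on both axes, and Slc35d3 lies above 3 on both axes of the left panel. Fitted sizes of genes listed at 0 in a group, such as Slc22a3, depend on the added 1.

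Among carboxylate carriers, Slc16a1 was the carrier with the strongest difference towards PIR- cells. Slc16a1 (chr3:104638668-104658462, plus strand, GRCm38), which exchanges lactate and pyruvate with protons, had a mean of 17.4 ± 3.82 and a highest value of 21.7 in wild-type PIR+ libraries, against 44.5, 54.2 and 75.3 in wild-type PIR- libraries. In KO it was 16.4, 13.2 and 19.0 in PIR+ and 48.7, 49.0 and 53.6 in PIR- libraries. All 6 PIR+ libraries were below all 6 PIR- libraries. The ratio of the means, PIR- over PIR+, was 3.34 in wild type and 3.11 in KO, and the fitted log2 difference (PIR+ minus PIR-) was -1.67 ± 0.23 (SE, limma adjusted p = 3.46e-09) and -1.59 ± 0.23 (2.32e-08). It was called in both genotypes under all 21 alternatives, and the authors' deposited table gives a p-value of 4.01e-16 in wild type. The 2 carboxylate carriers together held 1.5% to 1.9% of the carrier sum in PIR+ and 4.59% to 6.55% in PIR- libraries. Slc16a1 carried this gap. The means of Slc16a6, the other carrier, were higher in PIR+ (8.73 against 3.73 in wild type, 11.6 against 10.5 in KO).

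Bsg, the partner of Slc16a1, went the other way. It was 43.2, 52.6 and 52.2 in wild-type PIR+, 21.2, 27.9 and 30.3 in wild-type PIR-, 36.4, 44.6 and 57.8 in KO PIR+ and 18.0, 35.7 and 33.1 in KO PIR- libraries. The PIR+ libraries were above the PIR- libraries in each genotype, with differences of 0.88 (limma adjusted p = 0.00126) and 0.69 (0.0179), neither of which was called after scaling (0.129 and 0.293). The KO call was also lost without KO PIR+ replicate 3 (0.162) and without KO PIR- replicate 1 (0.283). Emb, embigin, the partner of other monocarboxylate carriers, was 78.9 ± 7.70 in PIR+ and 12.3 ± 2.30 in the PIR- libraries of wild type and 61.6 ± 15.9 and 25.9 ± 1.65 in KO. Its differences were 2.59 ± 0.22 (2.9e-18) and 1.19 ± 0.22 (1.22e-05), called on both scales.

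In mitochondria, the citrate carrier ran against the other called members of its class. Slc25a1 (chr16:17925223-17928219, minus strand), which exports citrate to the cytosol for lipid synthesis, was 17.1, 23.7 and 18.3 in wild-type PIR+, 38.7, 31.0 and 52.8 in wild-type PIR-, 20.6, 18.6 and 21.3 in KO PIR+ and 40.2, 62.3 and 65.4 in KO PIR- libraries. Again no PIR+ library reached the lowest PIR- library. The ratio of means, PIR- over PIR+, was 2.07 and 2.77, and the log2 differences were -0.995 ± 0.23 (limma adjusted p = 0.000365) and -1.40 ± 0.23 (8.34e-07). The wild-type call was lost without the globin-rich libraries (-0.91, adjusted p = 0.0743) and the KO call with the E12.5 libraries alone (-0.89, 0.1), in which KO PIR+ and KO PIR- have 1 library each. The authors' deposited table gives a p-value of 4.14e-08 in wild type.

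Slc25a12 (chr2:71271063-71367749, minus strand), the aspartate-glutamate carrier of the malate-aspartate shuttle, was 14.6, 26.3 and 18.3 in wild-type PIR+, 5.8, 3.1 and 6.2 in wild-type PIR-, 9.1, 10.8 and 15.2 in KO PIR+ and 3.2, 5.8 and 3.7 in KO PIR- libraries. This gene met the rule through PIR+ libraries alone, so its direction was set by the choice of members. All PIR+ libraries lay above all PIR- libraries, by 1.79 ± 0.34 (limma adjusted p = 1.1e-05) in wild type and 1.28 ± 0.34 (0.00245) in KO, the latter lost with the E14.5 libraries alone (0.95, 0.114). Slc25a11, the oxoglutarate-malate carrier of the same shuttle, was higher by 0.78 (0.0124) and 0.95 (0.00407) and was called in neither genotype after scaling (0.334 and 0.0541). It was also lost without wild-type PIR+ replicate 3 (0.0673) and without KO PIR+ replicate 3 (0.0696). Slc25a13, the paralog of Slc25a12, was called in neither genotype (0.53, adjusted p = 0.11, and 0.68, 0.0583).

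Of the 14 mitochondrial carriers 6 were higher (40.6% of all genes were) and 1 lower (3.72%) in wild type, and 2 (22.5%) and 1 (2.97%) in KO. After scaling the counts were 2 and 1, and 1 and 1. Their median difference was 0.65 in wild type and 0.38 in KO, close to the 0.51 and 0.39 of all genes tested. Slc25a12, Slc25a45 and Slc25a23 met the rule through PIR+ libraries alone, so their direction was set by the choice of members. Slc25a3 was 133.9, 165.7 and 180.3 in PIR+ and 89.6, 101.5 and 94.7 in the PIR- libraries of wild type, and 172.1, 165.5 and 223.6 against 134.0, 147.6 and 141.1 in KO. It was called in wild type only (0.73, limma adjusted p = 0.000591; KO 0.39, 0.0868) and not after scaling (0.132). Slc25a5 was called in neither genotype (0.31, 0.129, and 0.30, 0.175). Its sister translocase Slc25a4 was 45.8 ± 3.11 in PIR+ and 26.3 ± 0.702 in the PIR- libraries of wild type (0.77, 0.00308) and 44.6 ± 8.80 and 34.1 ± 5.55 in KO (0.37, 0.189), and was not called after scaling (0.234). Slc25a45 was 17.8, 16.4 and 19.7 in PIR+ and 4.2, 7.7 and 4.7 in the PIR- libraries of wild type (1.57 ± 0.31, 2.99e-05), and 17.6, 9.8 and 12.9 against 5.8, 9.8 and 8.8 in KO (0.65, 0.109). Slc25a23, the ATP-magnesium and phosphate carrier, was called in wild type (1.15, 0.00825) and not in KO (0.62, 0.191), and the call was lost after scaling (0.73, 0.159) and without wild-type PIR- replicate 2 (0.84, 0.0785). The other 5 of this class, Slc25a17, Slc25a37, Slc25a39, Slc25a46 and Slc25a51, were called in neither genotype (limma adjusted p 0.0503 to 0.747).

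Slc25a37, mitoferrin-1, which brings iron to mitochondria for heme synthesis, was 8.9, 8.5 and 18.3 in wild-type PIR+, 8.5, 20.1 and 14.0 in wild-type PIR-, 18.8, 6.9 and 16.0 in KO PIR+ and 18.5, 11.0 and 14.7 in KO PIR- libraries. It was not called in either genotype (-0.24, limma adjusted p = 0.513, and -0.16, 0.719). In each group its highest value was in a globin-rich library.

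Glucose carriers were both higher in PIR+ cells. Slc2a3 (chr6:122727809-122801640, minus strand), the high-affinity GLUT3, was 11.4, 13.8 and 12.9 in PIR+ and 4.2, 3.1 and 3.1 in the PIR- libraries of wild type, and 12.1, 10.3 and 20.5 against 3.7, 4.0 and 4.4 in KO. Every PIR+ library exceeded 10 and no PIR- library reached 5. The differences were 1.62 ± 0.35 (limma adjusted p = 0.000112) and 1.55 ± 0.35 (0.000328), a ratio of means of 3.66 and 3.54, and were called under all 21 alternatives. Slc2a1 (chr4:119108711-119137983, plus strand), the widespread GLUT1, was 10.8 to 15.6 in PIR+ and 1.1, 6.2 and 7.8 in the PIR- libraries of wild type, and 20.0, 16.2 and 17.5 against 7.9, 6.3 and 8.1 in KO. Its groups did not overlap either, with differences of 1.44 ± 0.34 (0.000436) and 1.17 ± 0.34 (0.0067). The wild-type call was lost without wild-type PIR- replicate 1, its lowest library (0.80, 0.0612), and the KO call was lost after scaling (0.79, 0.147). Both genes passed the threshold through PIR+ libraries alone. They made up 1.6% to 2.08% of the carrier sum in PIR+ and 0.54% to 1.05% in PIR- libraries.

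Of the 6 nucleotide sugar carriers 4 were higher in PIR+ cells in each genotype (40.6% and 22.5% of all genes were). All 4 passed the threshold through PIR+ libraries alone, so that their direction was set by it and the count supports nothing. Slc35d3 (chr10:19847916-19851459, minus strand), an endomembrane protein known for a role in platelet dense granules, was 19.7, 20.4 and 26.4 in PIR+ and 2.1, 0 and 0 in the PIR- libraries of wild type. In KO it was 26.1, 28.9 and 25.1 in PIR+ and 1.1, 1.7 and 5.1 in PIR- libraries. The lowest PIR+ library stood far above the highest PIR- library. The fitted differences were 3.98 ± 0.39 (limma adjusted p = 1.8e-15) and 3.09 ± 0.39 (1.57e-10), sizes that depend on the added 1 because PIR- values are near 0. The call held in both genotypes under all 21 alternatives. Megakaryocyte and mast cell markers summed to 5.5 to 23.6 in PIR+ and 0 to 6.3 in PIR- libraries, and their part in this difference was not tested.

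Slc35c1, the GDP-fucose carrier of the Golgi, was 11.4, 17.8 and 11.5 in PIR+ and 1.6, 3.1 and 2.3 in the PIR- libraries of wild type, and 9.7, 11.8 and 14.4 against 3.2, 6.9 and 4.4 in KO. It differed by 2.12 ± 0.36 (limma adjusted p = 1.18e-06) and 1.19 ± 0.36 (0.0101), the latter not called after scaling (0.0893) nor without KO PIR+ replicate 3 (0.0714) or KO PIR- replicate 1 (0.0867). Slc35c2, a relative of Slc35c1, was 12.1, 19.1 and 17.6 against 5.3, 2.3 and 9.3 in wild type and 9.1, 11.3 and 11.4 against 3.2, 5.2 and 2.9 in KO. It differed by 1.51 ± 0.35 (0.000404) and 1.31 ± 0.35 (0.00328), the first lost without the globin-rich libraries (0.0524) and the second after scaling (0.0583). Slc35a1, the CMP-sialic acid carrier, was 10.8, 8.5 and 10.2 in PIR+ and 1.6, 3.1 and 5.4 in the PIR- libraries of wild type, and 6.7, 8.8 and 14.4 against 5.3, 1.2 and 4.4 in KO. Its differences of 1.40 ± 0.40 (0.00341) and 1.32 ± 0.40 (0.00916) were not called after scaling (0.0749 and 0.101), and the KO call was lost without KO PIR+ replicate 3 (0.118) or KO PIR- replicate 2 (0.145). The other 2 of the class, Slc35a4 and Slc35b2, the carrier of the sulfate donor PAPS, were called in neither genotype (0.18 to 0.54, adjusted p 0.114 to 0.561). After scaling 3 of the 6 were higher in wild type and 1 in KO. The class summed to 78.7 to 107.9 in PIR+ and 30.9 to 48.1 in PIR- libraries, that is 5.39% to 6.69% and 2.94% to 3.98% of the carrier sum.

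**Figure D3:**
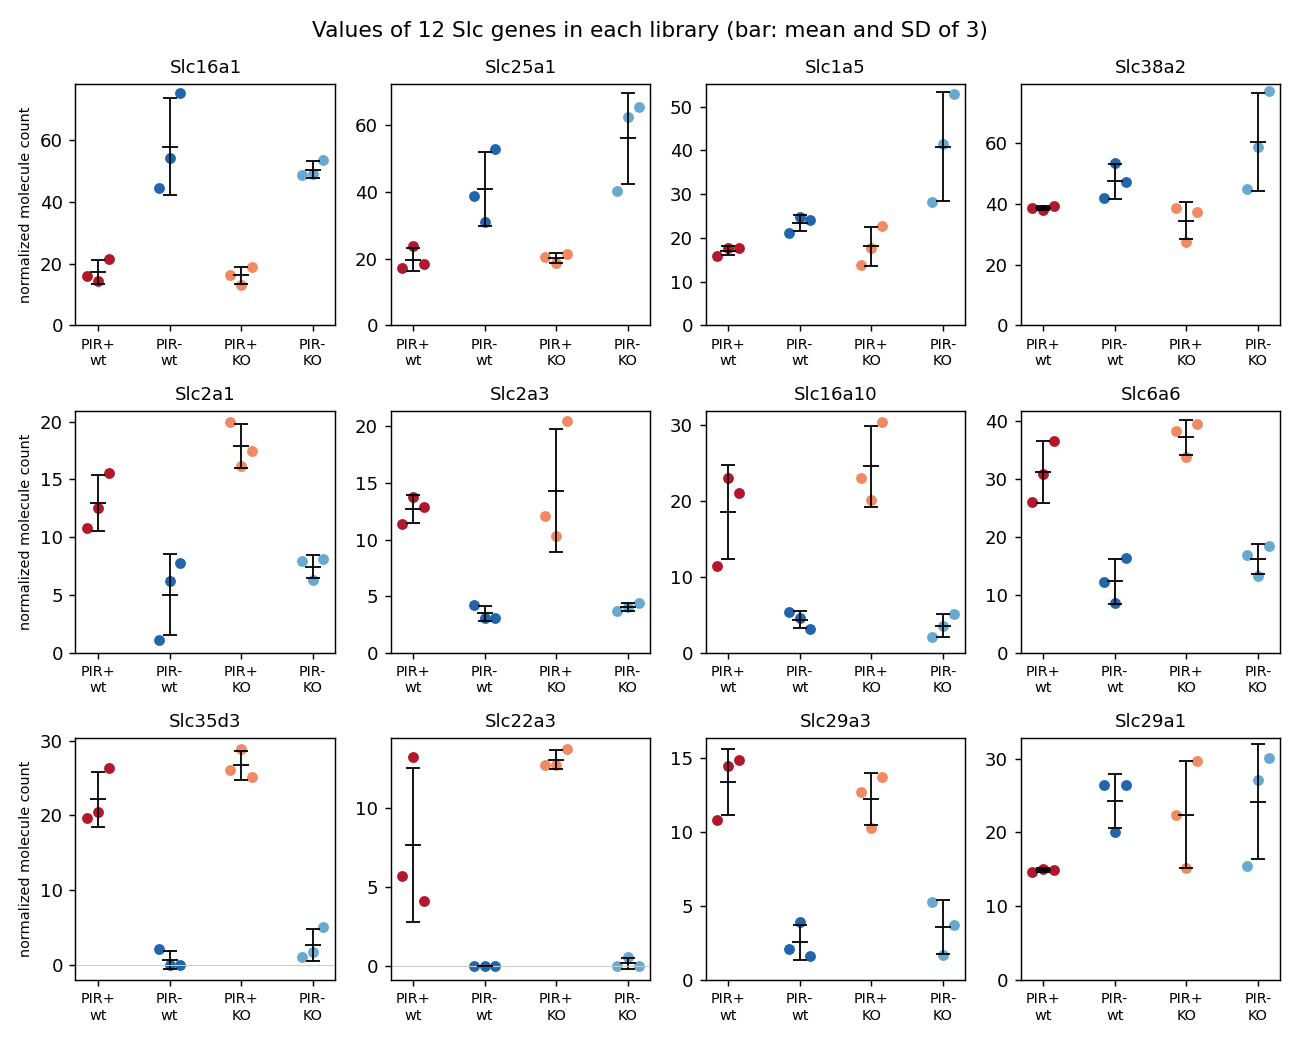
Deposited values of 12 carrier genes in each library (1 point per library), with bars at the mean and SD of 3 libraries, for the 4 groups. Slc16a1 and Slc25a1 are higher in PIR- groups, Slc35d3, Slc22a3, Slc29a3, Slc16a10, Slc2a3 and Slc6a6 are higher in PIR+ groups, and Slc1a5 is highest in the KO PIR- group (28.1 to 52.9).

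The 11 amino acid carriers split in direction. Slc16a10 (chr10:40033532-40142258, minus strand), a carrier of aromatic amino acids and thyroid hormones, was 11.4, 23.0 and 21.0 in PIR+ and 5.3, 4.6 and 3.1 in the PIR- libraries of wild type, and 23.0, 20.1 and 30.4 against 2.1, 3.5 and 5.1 in KO. All PIR+ libraries were above 10 and all PIR- libraries below 6. Slc16a10 met the rule through PIR+ libraries alone, so its direction was set by the choice of members. The ratio of means was 4.26 and 6.87, and the differences were 1.83 ± 0.33 (limma adjusted p = 3.25e-06) and 2.52 ± 0.33 (6.68e-10), called under all 21 alternatives. Slc6a6 (chr6:91684053-91759066, plus strand), the taurine carrier, was 26.0, 30.9 and 36.6 in PIR+ and 12.2, 8.5 and 16.3 in the PIR- libraries of wild type, and 38.2, 33.8 and 39.5 against 16.9, 13.3 and 18.4 in KO. It too separated the subsets without overlap, by 1.30 ± 0.25 (1.47e-05) and 1.16 ± 0.25 (0.000162), and was not called in KO with the E12.5 libraries alone, 1 against 1 (1.18, 0.0569).

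Slc1a5 and Slc38a2 were lower in PIR+ cells of the KO. Slc1a5, which exchanges glutamine and other neutral amino acids, was 15.9, 17.8 and 17.6 in PIR+ and 21.2, 24.8 and 24.1 in the PIR- libraries of wild type, and 13.9, 17.6 and 22.8 against 28.1, 41.5 and 52.9 in KO. The groups did not overlap in either genotype. The difference was called in KO (-1.11 ± 0.25, limma adjusted p = 0.000259) and not in wild type (-0.43, 0.144), where it was called after scaling (-0.92, 0.000423). Slc38a2, a sodium-coupled carrier of small neutral amino acids, was 38.7, 38.1 and 39.3 against 41.9, 53.4 and 47.3 in wild type and 38.8, 27.4 and 37.3 against 45.0, 58.8 and 77.1 in KO. The groups did not overlap here either, with a KO difference of -0.77 ± 0.21 (0.00409), a wild-type difference of -0.28 (0.268) and a wild-type call after scaling (-0.79, 0.000217). With the E12.5 libraries alone, 1 against 1 in KO, the KO differences were -0.29 (0.545) and -0.26 (0.5). The authors' deposited table gives wild-type p-values of 0.00406 and 0.000729.

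Slc38a1, the paralog of Slc38a2, had the opposite sign. It was 51.4, 42.7 and 37.3 in PIR+ and 21.2, 16.3 and 28.7 in the PIR- libraries of wild type (0.98, limma adjusted p = 0.000328) and 41.2, 46.5 and 60.8 against 26.0, 33.4 and 41.9 in KO (0.55, 0.0635). It was not called after scaling (0.0532). Slc3a2, the heavy chain, was 14.0, 16.8 and 17.6 against 10.6, 14.1 and 19.4 in wild type and 20.0, 19.6 and 26.6 against 20.1, 15.0 and 30.1 in KO, and the groups overlapped (adjusted p = 0.627 and 0.876). Slc7a1, a cationic amino acid carrier, was called in neither genotype (0.66, 0.0736, and -0.21, 0.62), nor was Slc43a3 (0.81, 0.0528, and 0.10, 0.848). Slc38a10 was called in KO (0.88, 0.0205), not in wild type (0.69, 0.0503) and not after scaling (0.191), and the call was lost without KO PIR+ replicate 3 (0.179) or KO PIR- replicate 1 (0.118) or 2 (0.0971). Slc7a14, whose values are off the molecule step, was 217.4, 253.1 and 243.1 against 131.9, 128.8 and 184.2 in wild type (0.69, 0.000909). In KO it was 227.4, 191.3 and 220.1 against 151.6, 148.4 and 187.7 (0.39, 0.0838). Slc7a2, also off the step, was called in both genotypes (1.09, 0.00822, and 0.90, 0.0449), and in neither after scaling (0.143 and 0.247). Its wild-type call was lost without wild-type PIR+ replicate 3 (0.0758), and its KO call without KO PIR+ replicate 2 (0.127) or 3 (0.112), KO PIR- replicate 1 (0.306) or 2 (0.0575) or wild-type PIR+ replicate 2 (0.0506). Over the class 5 were higher (40.6% of all genes were) and 0 lower (3.72%) in wild type, and 4 (22.5%) and 2 (2.97%) in KO. After scaling the counts were 2 and 2 in each. Slc16a10, Slc7a2 and Slc38a10 met the rule through PIR+ libraries alone, so their direction was set by the choice of members. The class sum shifts with the genes off the step. It was 423.9 to 471.9 in PIR+ and 272.0 to 353.1 in the PIR- libraries of wild type, and without Slc7a14 and Slc7a2 it was 194.3 to 211.4 and 138.0 to 163.0.

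The organic cation carrier Slc22a3 (chr17:12418960-12507704, minus strand) was 5.7, 13.2 and 4.1 in PIR+ wild type, listed at 0 in all 3 wild-type PIR- libraries, 12.7, 12.7 and 13.7 in KO PIR+ and 0, 0.6 and 0 in KO PIR- libraries. No PIR- library was above 0.6 and no PIR+ library was below 4.1. Its direction was set by the choice of members, as Slc22a3 met the rule through PIR+ libraries alone. limma called it in both genotypes (adjusted p = 2.88e-06 and 3.67e-08), and no fold is given for wild type. With the E14.5 libraries alone, 1 against 1 in wild type, it was not called (adjusted p = 0.0552). Slc22a3 was not called between KO and wild type in PIR+ cells. Its exons share 420 bases with Plg on the opposite strand, and whether reads were counted by strand is not given in the sources used here.

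The 2 nucleoside carriers had opposite signs in wild type. Slc29a3 (chr10:60712072-60752794, minus strand), which exports nucleosides from lysosomes, was 10.8 to 14.9 in PIR+ and 2.1, 3.9 and 1.6 in the PIR- libraries of wild type, and 12.7, 10.3 and 13.7 against 5.3, 1.7 and 3.7 in KO. As Slc29a3 met the rule through PIR+ libraries alone, its direction was set by the choice of members. No PIR- library reached the PIR+ range, and the differences were 2.07 ± 0.37 (limma adjusted p = 4.29e-06) and 1.61 ± 0.37 (0.000519). With the E12.5 libraries alone, 1 against 1 in KO, it was not called (1.22, 0.141). Slc29a1, the nucleoside carrier of the plasma membrane, was 14.6, 15.1 and 14.9 in PIR+ and 26.5, 20.1 and 26.4 in the PIR- libraries of wild type, and 22.4, 15.2 and 29.7 against 15.4, 27.1 and 30.1 in KO. It was lower in wild-type PIR+ cells (-0.66 ± 0.26, 0.0302), with the groups apart, and overlapped in KO (-0.10, 0.786). That wild-type call was lost in 10 of 21 alternatives, among them without wild-type PIR+ replicate 1 (0.0559), 2 (0.0605) or 3 (0.0704) and without wild-type PIR- replicate 1 (0.101) or 3 (0.0699). The difference between the genotypes in its subset effect was not called.

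Slc44a2, a choline carrier, was 12.7, 10.5 and 13.6 in PIR+ and 6.4, 1.5 and 3.9 in the PIR- libraries of wild type, and 6.7, 7.3 and 9.1 against 4.2, 6.3 and 8.8 in KO. Slc44a2 met the rule through the wild-type PIR+ libraries alone, so its excess there was set by the choice of members. It was called in wild type (1.56 ± 0.37, limma adjusted p = 0.000423; without the globin-rich libraries 0.76, 0.293) and not in KO (0.27, 0.599). Its interaction had the lowest adjusted p of the 51 (0.587), so a difference between genotypes was not shown. Slc23a1, whose values are off the step, was 56.0, 66.0 and 69.5 against 57.3, 51.9 and 65.0 in wild type and 54.1, 48.2 and 66.9 against 43.2, 42.2 and 58.6 in KO. Its direction turned with scaling in wild type, from 0.13 (0.586) to -0.37 (0.0252).

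Of 6 metal and heme carriers 4 were higher in wild type (40.6% of all genes were) and 1 in KO (22.5%), and none in either genotype after scaling. Slc31a1 and Slc39a10 met the rule through PIR+ libraries alone, so their direction was set by the choice of members. Slc31a1, the copper importer, was 8.2, 11.8 and 8.1 in PIR+ and 3.2, 1.5 and 5.4 in the PIR- libraries of wild type, and 11.5, 11.8 and 15.2 against 2.6, 4.6 and 8.1 in KO. Its groups did not overlap, and it differed by 1.33 ± 0.37 (limma adjusted p = 0.00297) and 1.27 ± 0.37 (0.00705). Neither call held after scaling (0.0578 and 0.0746), where the average over genotypes was called (0.92, 0.00497). The wild-type call was also lost without the globin-rich libraries (0.0539), and the KO call was lost without KO PIR+ replicate 3 (0.0553) or KO PIR- replicate 1 (0.108). The zinc importers Slc39a1 and Slc39a10 were higher in wild type alone (both 0.83, adjusted p = 0.0229 and 0.0257; KO 0.63, 0.118, and 0.41, 0.315), as was Slc39a6 (0.83, 0.0468; KO 0.15, 0.767). The Slc39a6 call was lost in 13 of 21 alternatives, among them without wild-type PIR+ replicate 1 (0.107), 2 (0.115) or 3 (0.0577), wild-type PIR- replicate 2 (0.252) or KO PIR+ replicate 2 (0.0511). That of Slc39a1 was lost without wild-type PIR+ replicate 2 (0.106) or PIR- replicate 1 (0.227), and that of Slc39a10 without wild-type PIR+ replicate 3 (0.122) or PIR- replicate 1 (0.0611). Slc30a5, which brings zinc into the Golgi, was called in neither genotype (0.20, 0.578, and 0.53, 0.172), nor was Slc48a1, a heme carrier (0.43, 0.258, and -0.12, 0.79).

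Among the ion carriers, Slc4a7, a sodium-bicarbonate cotransporter, was 7.0, 7.2 and 10.8 in PIR+ and 13.3, 12.4 and 14.7 in the PIR- libraries of wild type. These did not overlap, and the gene was not called on the deposited scale (-0.65, limma adjusted p = 0.0721), but was called as lower after scaling (-1.13, 0.00102) and with the replicate number as a block (-0.65, 0.0383). Slc20a1, a phosphate importer, was called in neither genotype (0.32, 0.442, and 0.40, 0.371). Of the 2 genes that are not transporters, Slc7a6os was called in neither genotype (0.43, 0.294, and 0.30, 0.513), and the scaffold gene Slc9a3r1 was higher in wild type (0.57, 0.0448; KO 0.56, 0.0719). That call was lost in 12 of 21 alternatives, among them after scaling (0.07, 0.823) and without wild-type PIR+ replicate 2 (0.179) or 3 (0.14), wild-type PIR- replicate 1 (0.201) or 3 (0.0683), KO PIR+ replicate 1 or KO PIR- replicate 2 (both 0.0511).

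**Figure D4:**
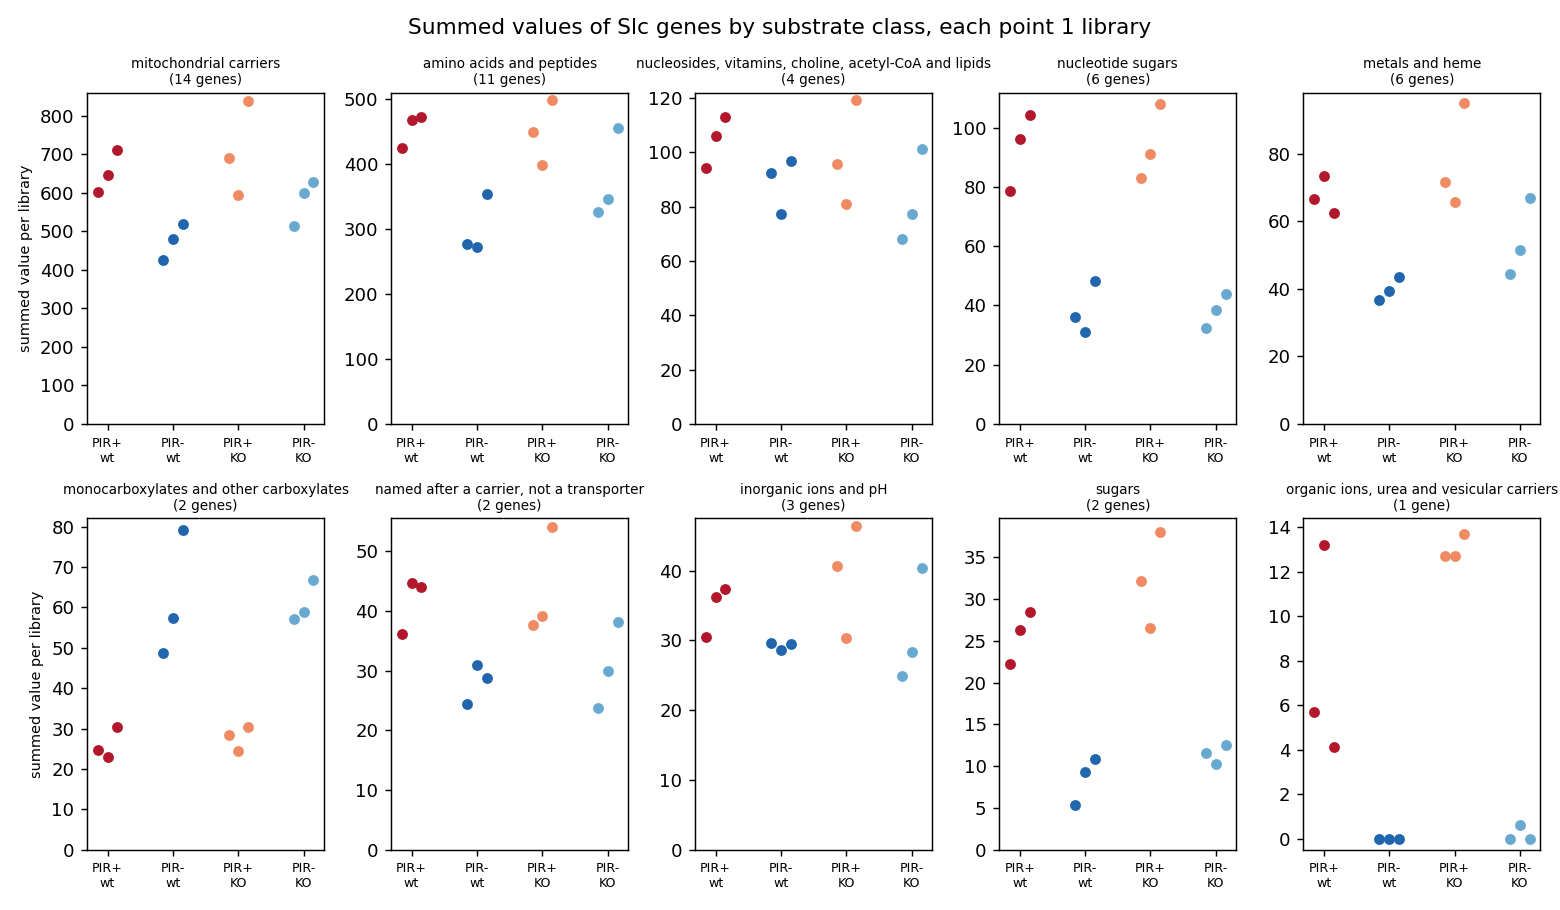
Summed deposited values of the members of each of the 10 substrate classes in each library (1 point per library, 4 groups, separate vertical axes). Sums of nucleotide sugar (78.7 to 107.9 against 30.9 to 48.1) and sugar carriers are higher in all PIR+ than in all PIR- libraries. Both sugar genes and the called nucleotide sugar genes passed the threshold through PIR+ libraries alone. The carboxylate sum is lower in PIR+ libraries (23.0 to 30.5 against 48.7 to 79.2) through Slc16a1, while Slc16a6 has the opposite sign.

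Few carriers were called between KO and wild type. In PIR+ cells 0 of 51 members were called between KO and wild type by limma (0.903% of all genes were). An unadjusted p under 0.05 was found for 2 members (6.89% of all genes), and the lowest adjusted p was 0.697 for Slc25a12. The authors' deposited table gives a p-value under 0.05 for 2 members there, Slc25a12 (0.0223) and Slc7a14 (0.0287). In PIR- cells 1 member was called (1.3% of all genes) and 9 had an unadjusted p under 0.05 (13.8% of all genes). That member, Slc16a6, a carrier of ketone bodies, was 4.2, 3.1 and 3.9 in wild-type PIR- and 8.5, 9.8 and 13.2 in KO PIR- libraries, with 8.9, 8.5 and 8.8 in PIR+ wild type and 12.1, 11.3 and 11.4 in KO PIR+. No wild-type value of Slc16a6 reached 10, so it met the rule through KO libraries alone. The choice of members thus favoured a higher KO value, and the call supports nothing. Slc16a6 rose from 3.73 ± 0.569 to 10.5 ± 2.43 in PIR- cells, by 1.27 ± 0.33 (adjusted p = 0.0229, range 0.00932 to 0.998 over the alternatives). Between the subsets it was called in wild type (1.05, 0.00823) and not after scaling (0.113), nor in KO (0.15, 0.748). The call was lost in 9 of 21 alternatives, among them without wild-type PIR- replicate 2 (0.114) and without KO PIR- replicate 2 (0.0854) or 3 (0.243). Slc16a6 shares 1052 exonic bases with Amz2 on the opposite strand. The KO effect differed between the subsets for 0 of 51 members (0.572% of all genes). At an unadjusted p under 0.05 were 2 members (5.5% of all genes), Slc44a2 and Slc25a45.

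Some transporters outside the Slc symbols were also called between the subsets. Their counts are to be read beside the shares of all genes, 40.6% higher and 3.72% lower in wild type. In KO these shares were 22.5% and 2.97%. Of 49 carriers with other symbols 19 were tested, 6 were higher and 1 lower in wild-type PIR+ cells, and 4 and 1 in KO (after scaling 1 and 2, and 2 and 3). Spns2, the exporter of sphingosine-1-phosphate, was 14.2 ± 3.61 in PIR+ and 0.267 ± 0.462 in the PIR- libraries of wild type and 13.0 ± 1.32 and 0.733 ± 0.874 in KO (limma adjusted p = 2.35e-10 and 4.39e-08). Ucp2, an uncoupling protein of the same family as the Slc25 carriers, was 67.3 ± 16.0 against 170 ± 22.7 in wild type and 71.4 ± 12.8 against 154 ± 18.6 in KO, that is -1.35 (4.22e-09) and -1.11 (1.35e-06). It therefore lies on the side of Slc25a1. Of 16 cation pumps, which build the sodium gradient that many carriers use, 9 were tested. Of these 5 were higher and 2 lower in wild type and 3 and 2 in KO (after scaling 2 and 3, and 1 and 3). The 2 lower on the deposited scale were the sodium pump subunits Atp1b1 and Atp1b3. Atp1b1 was 2.57 ± 2.73 against 27.3 ± 2.61 in wild type (limma adjusted p = 5.38e-14) and 3.27 ± 0.757 against 28.5 ± 0.814 in KO (3.95e-11).

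The lists that follow are to be read beside the 40.6% of all genes that were higher in wild type and the 22.5% in KO. Of 17 genes of the vacuolar proton pump, which acidifies the compartments where Slc29a3 works, 14 were tested and 8 were higher in each genotype, 2 and 0 after scaling. Of 19 glycolysis genes 11 were tested, 9 higher in wild type and 7 in KO, and after scaling 0 higher and 2 lower, and 3 and 1. Of 21 genes of the amino acid response 9 were tested, 1 higher in wild type and 0 in KO, and after scaling 0 higher and 3 lower, and 0 and 1. The list drawn up for carrier partner proteins held 9 genes. Its 4 tested, Bsg, Emb, Arl6ip5 and Gm2a, were all higher in both genotypes. After scaling Emb alone was called within a genotype, and all 4 were called in the average over genotypes. ABC transporters had 4 of 26 tested, 2 higher in wild type and 1 in KO. Of 21 genes of iron and heme handling 11 were tested, 2 higher in wild type and 4 higher and 1 lower in KO, the lower one Tfrc, the transferrin receptor.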

How the data were processed

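RNA was measured in 12 libraries in 4 groups of 3, with groups from the sample titles, with which the genotype field agrees throughout. The deposited table holds a signal per gene, molecule counts that the authors normalized and rounded to 1 decimal, and 2 columns of p-values from the authors' tests. The submitters' processing notes name TopHat2, DESeq2 and the genome build mm10; for versions, counting tool and strand setting: not given in the sources used here. The values were put on a log2(value + 1) scale from the deposited signal and fitted with limma 3.58.1 (R 4.3.3), trended prior, 4 group means, all 12 libraries. All 4542 genes at 10 or more in at least 3 libraries were tested, with Benjamini-Hochberg adjustment over them, and an adjusted p under 0.05 is a call. Depth is known only through the value of 1 molecule (0.49 to 0.775), so a value under about 5 rests on few molecules.

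Alternatives were median-of-ratios scaling, an added 0.1, no filter, a replicate block, the day of the source name as a factor, the 6 libraries whose markers match the title, no globin-rich libraries (Hba-a1 above 300) and each library left out. Each day alone and the members without those off the step were added after seeing the data. The fit was tested on simulated data. The values of 1 member are not reported here, and the class of ion carriers is not plotted gene by gene; counts and class sums include it.

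Members, substrate classes and gene lists were chosen with earlier results of these data known. Members named with values are, per comparison, up to 6 called per direction with the largest fold, the 5 highest by mean, the 3 highest per class, those called between KO and wild type, and partners (Slc3a2, Slc25a4, Bsg); of other lists, up to 3 called genes with the largest fold. Others, such as Slc6a6, Slc25a37, Slc4a1, Slc44a2, Slc7a2, Slc31a1 and Slc35a1, were chosen after their values were seen. Locations and shared exons are from GENCODE M21 (GRCm38) and promoters from RefSeq. Plots were made in matplotlib 3.10.9 under Python 3.11.15.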

Additional observations from a re-analysis of the deposited data

Results flagged for a closer look

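The effect of the KO differed between PIR+ and PIR- cells for 2 genes that work beside the carriers, by the interaction term of the limma fit. Emb, embigin, the partner of monocarboxylate carriers, was 78.9 ± 7.70 in wild type and 61.6 ± 15.9 in KO among PIR+ libraries (SD, n = 3), and 12.3 ± 2.30 and 25.9 ± 1.65 among PIR- libraries. It rose in KO PIR- cells by 1.02 ± 0.22 (SE, adjusted p = 0.00224), was not called in PIR+ cells (-0.38, adjusted p = 0.832), and the difference between these effects was -1.40 ± 0.31 (adjusted p = 0.00776, range 0.00192 to 1.0 over 21 alternatives). It was lost in 6 of them, among them without KO PIR+ replicate 2 (-1.20, adjusted p = 0.0734).

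Tfrc, the transferrin receptor, was 28.0 ± 4.35 and 15.0 ± 4.78 in wild-type PIR+ and KO PIR+ libraries, and 26.1 ± 2.22 and 35.0 ± 5.40 in PIR- libraries. Its interaction was -1.29 ± 0.34 (adjusted p = 0.0498, range 0.00873 to 1.0), and 17 of 21 alternatives lost the call, among them leaving out any 1 library but KO PIR+ replicate 3 or KO PIR- replicate 2. Tfrc is also expressed by erythroid cells, whose markers summed to 38.4 to 900.4 in wild-type and 39.0 to 1835.5 in KO libraries of PIR+ cells, and 173.4 to 1607.6 and 42.6 to 1377.0 in those of PIR- cells. Without the globin-rich libraries the interaction was -1.14 (adjusted p = 0.975), and the part of erythroid RNA in the result was not tested further.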

How the results depend on the processing

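Of 51 members, 30 were called between the subsets in wild type, 19 after median-of-ratios scaling, 16 without the globin-rich libraries and 19 with the E12.5 libraries alone. In KO 19 were called, 11 after scaling and 11 with the E14.5 libraries alone, and in the average 35 and, after scaling, 23. For the KO effect in PIR- cells the count of 1 became 2 after scaling, 2 with an added 0.1, 2 in the 6 libraries whose markers match the title, 0 without a filter, 0 with the day as a factor and 0 with the E12.5 libraries alone. Leaving out 1 library gave 25 to 33 calls in wild type, 13 to 25 in KO, 0 to 3 for the KO effect in PIR- cells, 0 for that in PIR+ cells and for the interaction, and 32 to 37 in the average. Scaling turned the sign of 11 members in wild type, 14 in KO and 12 in the average. Of these, the ones called on 1 of the 2 scales were Slc23a1 in wild type (-0.37) and in the average (-0.27), and Slc25a5 in the average (-0.15). The cause was not tested. With the replicate number as a block the counts were 36 in wild type, 27 in KO, 38 in the average, 4 for the KO effect in PIR- cells and 0 for that in PIR+ cells and for the interaction. Deviations from group means correlated at -0.106 to 0.162 between same-numbered libraries of different groups (18 pairs). Between differently numbered ones they correlated at -0.125 to 0.18 (36 pairs). These ranges overlap and cannot show whether the numbers pair the samples, which the labels do not say. Genes near the threshold of 10 rest on few molecules per library, which limits what differences among them are detectable at this depth.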
